A study of Mus musculus with 15 samples.

Results

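The Hox genes are the homeobox transcription factors of the HoxA, HoxB, HoxC and HoxD clusters. The 38 Hox genes described here were found in the deposited count table by the Ensembl identifier of each symbol, out of 48709 genes in all. They comprise 10 genes of HoxA on chromosome 6, 10 of HoxB on chromosome 11, 9 of HoxC on chromosome 15 and 9 of HoxD on chromosome 2. Not every Hox gene of the clusters is among the 38, and the shares, sums and detection counts given below cover these 38 alone. Bulk RNA-seq had been made from buds of ICR mouse embryos separated into epithelium and mesenchyme. The submandibular gland (SMG) was collected at E11.5, embryonic day 11.5, and gave 4 libraries of epithelium and 4 of mesenchyme. The parotid gland (PG) was collected at E12 and gave 3 libraries of epithelium and 4 of mesenchyme. No genotype or treatment other than the strain was given, the replicates were described as independent biological samples, and the number of embryos behind each library was not given. Since each gland was sampled on its own day, gland and day cannot be told apart in any comparison between glands.

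Hox genes lie in their clusters in the order of their paralog numbers, and during development the genes of low number are switched on earlier and further forward in the body than those of high number. Their proteins bind DNA together with cofactors of the PBX and MEIS families, retinoic acid activates the low-numbered genes, and Polycomb proteins keep the clusters silent where they are not used. The skeletal and connective tissue of the jaw, in which the salivary glands form, comes largely from neural crest that does not express Hox genes, whereas the crest of the second and more posterior pharyngeal arches does.

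Promoters of some of the Hox genes on which the results turn are shown for reference, as RefSeq windows on GRCm38.p6 from 250 bases before the start to 50 after it. No window was available for Hoxb2, Hoxc5 or Hoxc13, and that of Hoxa3 is not shown. Hoxb1 marked SMG epithelium, Hoxa2 was higher in SMG mesenchyme, and Hoxd1, Hoxd8 and Hoxd9 were the HoxD genes of PG mesenchyme. Capitals mark a match, on either strand, to TGATNNAT or to AGGTCA. TGATNNAT is the motif of a PBX protein bound with a HOX protein. AGGTCA is a half-site of retinoid receptors, which is only a part of a full site. The Hoxb1 window lies at chr11:96365508-96365807 on the plus strand and held 1 TGATNNAT match. The Hoxa2 window lies at chr6:52164782-52165081 on the minus strand and held 1 TGATNNAT match, read from the other strand. The Hoxd8 window lies at chr2:74704365-74704664 on the plus strand and held 1 AGGTCA match. The windows of Hoxd1, at chr2:74762730-74763029, and Hoxd9, at chr2:74697513-74697812, are on the plus strand and held none of these letters.
Hoxb1: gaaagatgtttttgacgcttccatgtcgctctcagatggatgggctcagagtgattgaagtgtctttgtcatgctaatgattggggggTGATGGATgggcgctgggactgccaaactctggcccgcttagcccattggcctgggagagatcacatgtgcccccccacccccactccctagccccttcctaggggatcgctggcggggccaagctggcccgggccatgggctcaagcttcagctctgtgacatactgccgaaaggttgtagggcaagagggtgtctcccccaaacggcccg
Hoxa2: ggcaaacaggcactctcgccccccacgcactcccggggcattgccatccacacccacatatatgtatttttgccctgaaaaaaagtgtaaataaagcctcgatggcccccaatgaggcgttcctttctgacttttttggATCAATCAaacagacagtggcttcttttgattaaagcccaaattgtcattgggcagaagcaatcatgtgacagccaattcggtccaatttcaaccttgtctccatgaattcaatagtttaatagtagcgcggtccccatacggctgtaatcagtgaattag
Hoxd1: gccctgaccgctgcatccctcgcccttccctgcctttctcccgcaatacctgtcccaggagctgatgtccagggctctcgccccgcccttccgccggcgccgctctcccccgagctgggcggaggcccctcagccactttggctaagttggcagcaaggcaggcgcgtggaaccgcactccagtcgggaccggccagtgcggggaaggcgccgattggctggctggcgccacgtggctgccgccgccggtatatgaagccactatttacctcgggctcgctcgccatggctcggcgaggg
Hoxd8: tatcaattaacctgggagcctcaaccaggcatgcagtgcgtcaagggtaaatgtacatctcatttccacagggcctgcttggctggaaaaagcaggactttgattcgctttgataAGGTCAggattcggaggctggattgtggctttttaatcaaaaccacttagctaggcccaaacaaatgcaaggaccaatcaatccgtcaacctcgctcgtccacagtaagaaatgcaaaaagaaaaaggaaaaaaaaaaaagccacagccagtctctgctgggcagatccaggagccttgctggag
Hoxd9: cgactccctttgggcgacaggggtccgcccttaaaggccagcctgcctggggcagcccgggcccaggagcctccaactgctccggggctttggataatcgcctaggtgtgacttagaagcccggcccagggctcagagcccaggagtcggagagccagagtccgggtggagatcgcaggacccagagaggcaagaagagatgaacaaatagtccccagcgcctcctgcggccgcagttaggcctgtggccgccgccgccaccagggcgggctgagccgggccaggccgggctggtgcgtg
The table held 24 windows for 22 of the 38 genes. TGATNNAT was found in 4 of the 24, against 8.85% of 32851 promoters of the same length over all genes. AGGTCA was found in 7 of the 24, against 16.3% of all promoters. The Hox windows had a median of 14 CpG dinucleotides and a GC content of 57.6%, against 7 and 52.7% over all promoters, and among those printed the Hoxd1 window had 29 and 69.7% while the Hoxd8 window had 6 and 46.7%. Only presence of the letters was scored, and no binding was measured.

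Library totals ran from 20561142 to 29552734 counts, so that 1 read was worth 0.0347 to 0.0484 CPM (a gene's reads relative to its library's total, after TMM scaling, which aligns libraries on their shared genes). The layers matched their labels: all 10 epithelial markers were higher in epithelium and all 10 mesenchymal markers higher in mesenchyme in both glands (edgeR, adjusted p below 0.05). PG mesenchyme replicate 1 stood apart from replicates 2 to 4 in Hox genes and, as other values, in a summed epithelial marker level of 495 CPM against 88.9 to 162 and a neuron marker level of 655 CPM against 188 to 299. PG epithelium replicate 2 had a mesenchymal marker level of 514 CPM against 109 and 154 in the other two PG epithelium libraries. Its neuron marker level was 173 CPM against 5.41 and 5.42. It was also the highest of its group in skeletal muscle (22.1 CPM), endothelial (38.4 CPM) and macrophage markers (10.8 CPM), and the lowest in erythroid markers (294 CPM). Where leaving out either library ended the call of a gene named below, the value without it is given. In bulk RNA a lower level from fewer expressing cells and from less RNA per cell cannot be told apart.

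Few Hox genes were detected at these bud stages. A level of 0.5 CPM in every library of a group was reached by 2 of 38 Hox genes in SMG epithelium (Hoxb1 and Hoxb2), by 0 in SMG mesenchyme, by 0 in PG epithelium and by 1 in PG mesenchyme (Hoxd8). Over all 48709 genes the same level was reached by 29.3%, 30.3%, 29.8% and 30.8% in these groups. Without PG mesenchyme replicate 1, 3 Hox genes reached it in PG mesenchyme, and without PG epithelium replicate 1, 1 did in PG epithelium. All 38 genes together had 6405 reads over the 15 libraries, of which Hoxd1 alone had 4036 and Hoxd8 972. Hoxa11 and Hoxd11 had 0 reads in all 15 libraries, which allows a level of up to 0.00793 CPM, a limit for counting error only. The filter on low counts was passed by 8 genes: Hoxa2, Hoxa3, Hoxb1, Hoxb2, Hoxc13, Hoxd1, Hoxd8 and Hoxd9. The 30 that did not pass had at most 68 reads over all libraries (Hoxc5), 18 of them had under 10, and none had a level above 0.66 CPM in any library. The 8 that passed could do so through a group in which they were high, so their counts below say nothing about the 30.

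**Figure D1:**
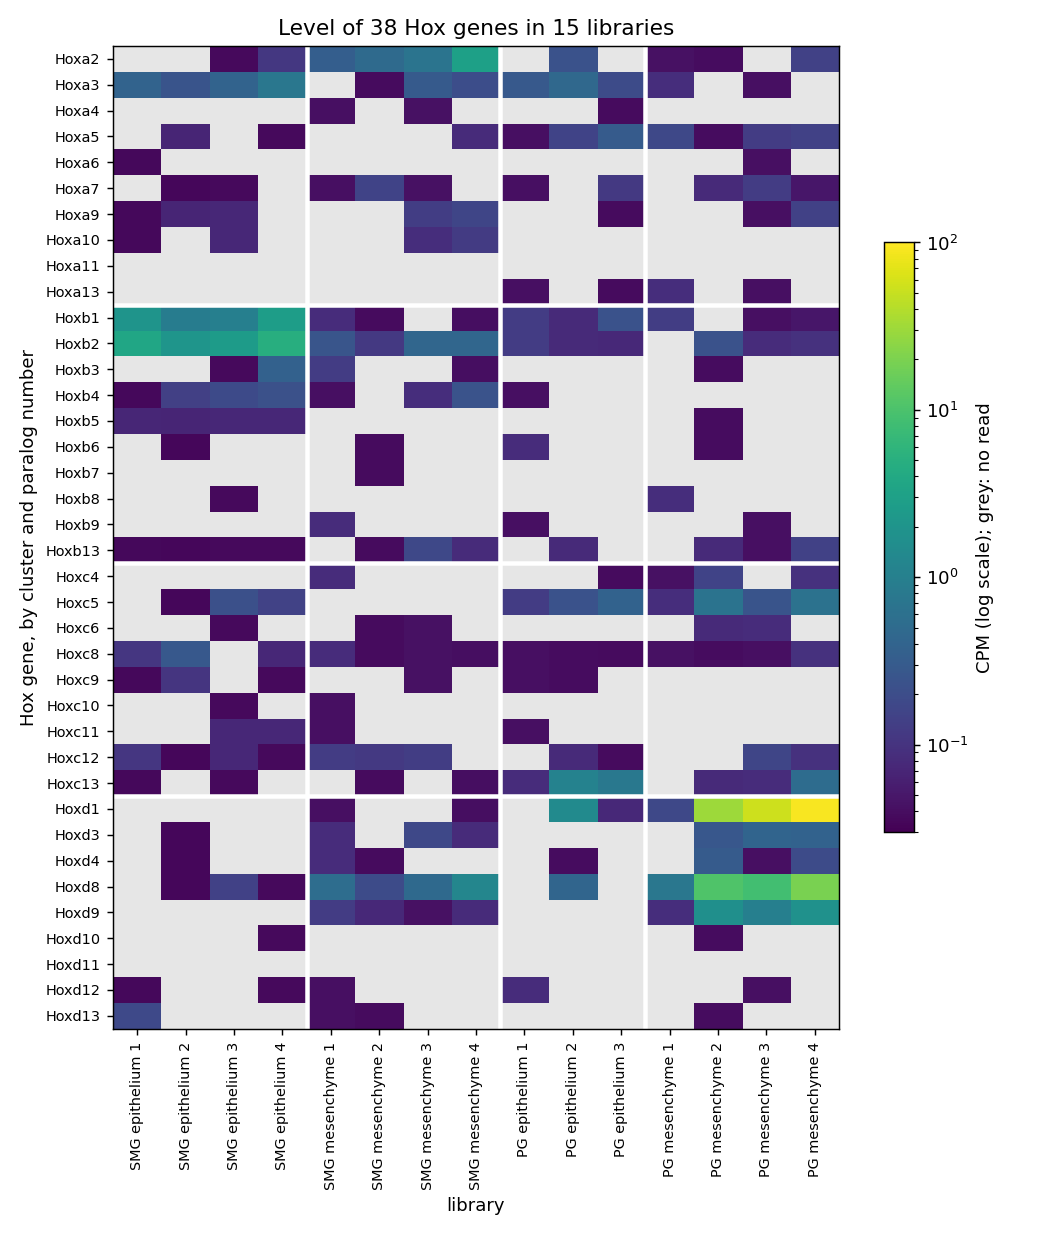
Level of each of the 38 Hox genes (rows, by cluster and paralog number) in each of the 15 libraries (columns), in CPM on a logarithmic colour scale, with grey where no read was counted. Rows of bright cells are Hoxb1 and Hoxb2 in SMG epithelium and Hoxd1, Hoxd8 and Hoxd9 in PG mesenchyme replicates 2 to 4. Single cells reach the level of the weaker of these. They are Hoxa2 (3.02 CPM) and Hoxd8 (1.25 CPM) in SMG mesenchyme replicate 4, and Hoxd1 (1.44 CPM) and Hoxc13 (1.09 CPM) in PG epithelium replicate 2.

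The clusters contributed unequally to the Hox reads of the 4 groups. In SMG epithelium HoxB gave 76.1% to 85.8% of the Hox reads of a library, and the summed Hox level was 4.20 to 9.64 CPM. In SMG mesenchyme no cluster dominated in every library: HoxA gave 17.9% to 60.1%, HoxD 22.5% to 41.1% and HoxB 14.2% to 25% of a sum of 1.54 to 5.96 CPM. In PG epithelium the sum was 1.25, 4.47 and 2.36 CPM, and HoxC gave 26.7% to 53.2% of the reads. PG mesenchyme replicates 2 to 4 had sums of 45.1, 64.8 and 117 CPM, with 96.5% to 98.1% of the reads from HoxD. Replicate 1 had a sum of 1.80 CPM, with 56.1% from HoxD out of 41 Hox reads. By paralog number, genes 1 to 3 held most of the sum in SMG epithelium (3.23 to 8.79 CPM) and in PG mesenchyme replicates 2 to 4 (31.1 to 93.5 CPM), while genes 9 to 13 summed to at most 0.877 CPM in any library other than PG mesenchyme replicates 2 to 4 and PG epithelium replicate 2 (1.28 CPM).

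**Figure D2:**
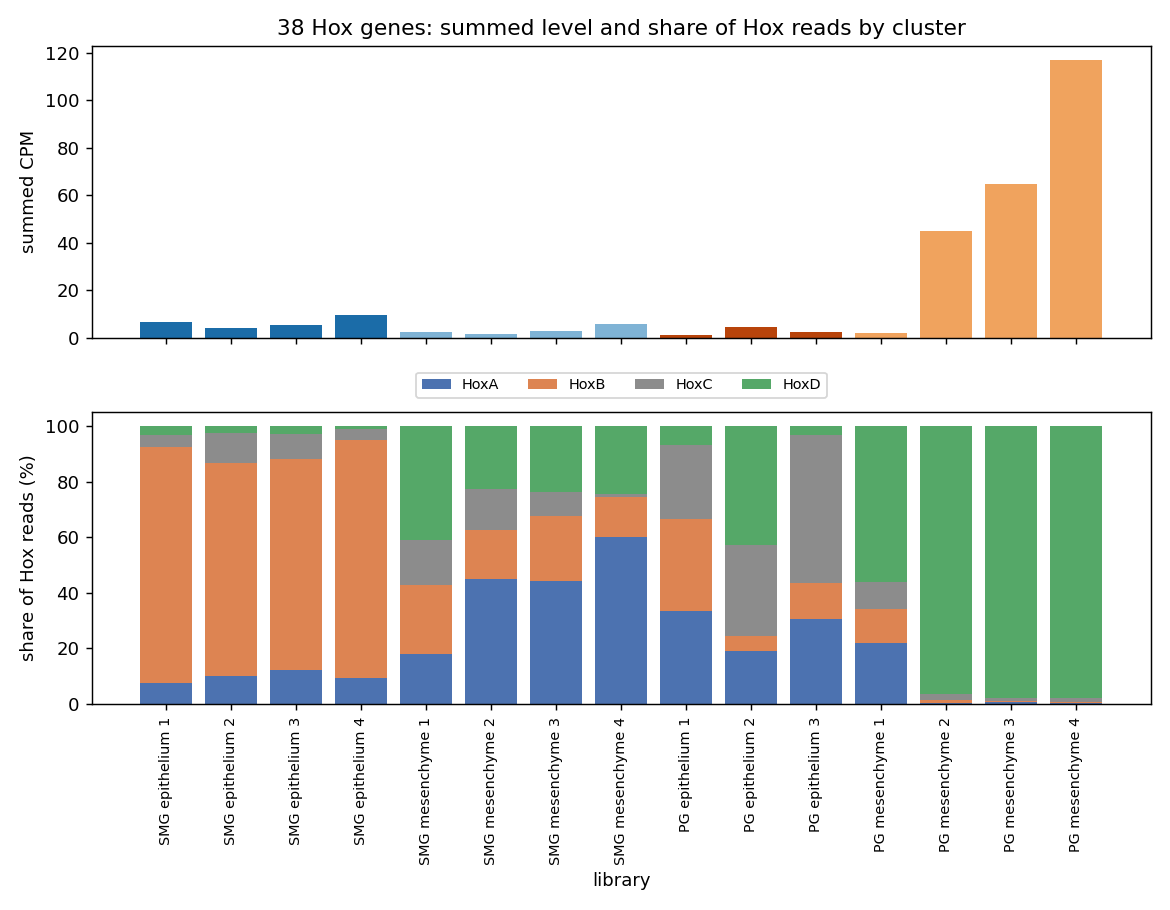
Summed level of the 38 Hox genes in each library in CPM (top) and the share of those reads from each cluster in percent (bottom). The bars of PG mesenchyme replicates 2 to 4 reach 45.1 to 117 CPM and are almost wholly HoxD, while replicate 1 of that group has 1.80 CPM; HoxB fills most of each SMG epithelium bar.

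The HoxB genes of paralog numbers 1 and 2 marked the SMG epithelium. Hoxb1, which patterns the fourth rhombomere of the hindbrain and is also known from foregut endoderm, lies at 11:96365752-96368256 (GRCm38). Its level was 2.00, 0.902, 0.988 and 2.70 CPM in SMG epithelium replicates 1 to 4, and 0.0837, 0.0384, 0 and 0.0403 CPM in SMG mesenchyme. It was 0.125, 0.0777 and 0.229 CPM in PG epithelium and 0.132, 0, 0.0416 and 0.0484 CPM in PG mesenchyme. Every SMG epithelium library lay above each of the other 11 libraries, and no library of the other groups had more than 6 reads. Hoxb2, a paralog of Hoxa2 at 11:96350525-96354012, followed the same layout at a higher level of 3.60, 2.05, 2.60 and 4.87 CPM in SMG epithelium. In SMG mesenchyme Hoxb2 had 0.251, 0.115, 0.431 and 0.443 CPM, in PG epithelium 0.125, 0.0777 and 0.0763 CPM, and in PG mesenchyme 0, 0.233, 0.0832 and 0.0967 CPM. Replicate 4 was the highest and replicate 2 the lowest SMG epithelium library for both genes. Per kilobase of exon, the group means in SMG epithelium were 0.709 CPM for Hoxb1 and 0.941 CPM for Hoxb2.

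Between the layers of the SMG bud, 2 of the 8 Hox genes tested were higher in epithelium and 2 were lower, where 51.9% of all 18940 genes tested differed in either direction (25.2% higher and 26.7% lower). The 2 higher genes were Hoxb1, with a fitted log2 difference of 5.17 ± 0.68 (SE, adjusted p = 1.147e-05), and Hoxb2, with 3.39 ± 0.50 (adjusted p = 3.268e-05; edgeR quasi-likelihood and Benjamini-Hochberg over the 18940 genes, as for every adjusted p below unless another tool is named). As a ratio of pooled counts, Hoxb1 was 40.1 times higher in SMG epithelium (95% counting interval 15.4 to 149) and Hoxb2 10.7 times (7.34 to 16.0). Between the epithelia, Hoxb1 and Hoxb2 were the 2 Hox genes lower in PG, where 11.7% of all genes tested differed (4.66% of all were lower and 7.07% higher). Hoxb1 fell by 3.47 on the log2 scale (SE 0.64, adjusted p = 0.002057) and the value for Hoxb2 was -5.08 (SE 0.65, adjusted p = 9.932e-05), and neither gene overlapped between the epithelia. The share of all genes without overlap between groups this small is not given here, so a lack of overlap is only a description wherever it is stated. Hoxb3os, the antisense transcript at 11:96343072-96354691, covers 27.3% of the exon bases of Hoxb2 and moved the same way. It had 13, 13, 5 and 18 reads in SMG epithelium and at most 3 in any other library, and its log2 difference was 2.54 ± 0.63 between the SMG layers (adjusted p = 0.003064) and -2.96 ± 0.73 between the epithelia (adjusted p = 0.01431). The library kit does not mark strand, so reads in the shared bases cannot be assigned to one of the 2 genes, whereas no exon of Hoxb1 overlaps another gene. The remaining 8 HoxB genes stayed at or below 0.369 CPM (Hoxb3 in SMG epithelium replicate 4), and Hoxb5 had reads in every SMG epithelium library at no more than 0.0738 CPM. Neuron markers summed to 33.5 to 47.2 CPM in SMG epithelium, below the 85.6 to 131 CPM of SMG mesenchyme. The sum of Schwann precursor and crest markers went the other way, with 190 to 250 CPM in SMG epithelium against 74.6 to 166 CPM in SMG mesenchyme. Most of its members did not: of the 6, 1 was called higher and 3 lower in SMG epithelium, with a median log2 difference of -1.56. The part of either marker level in the Hoxb1 and Hoxb2 differences was not tested.

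**Figure D3:**
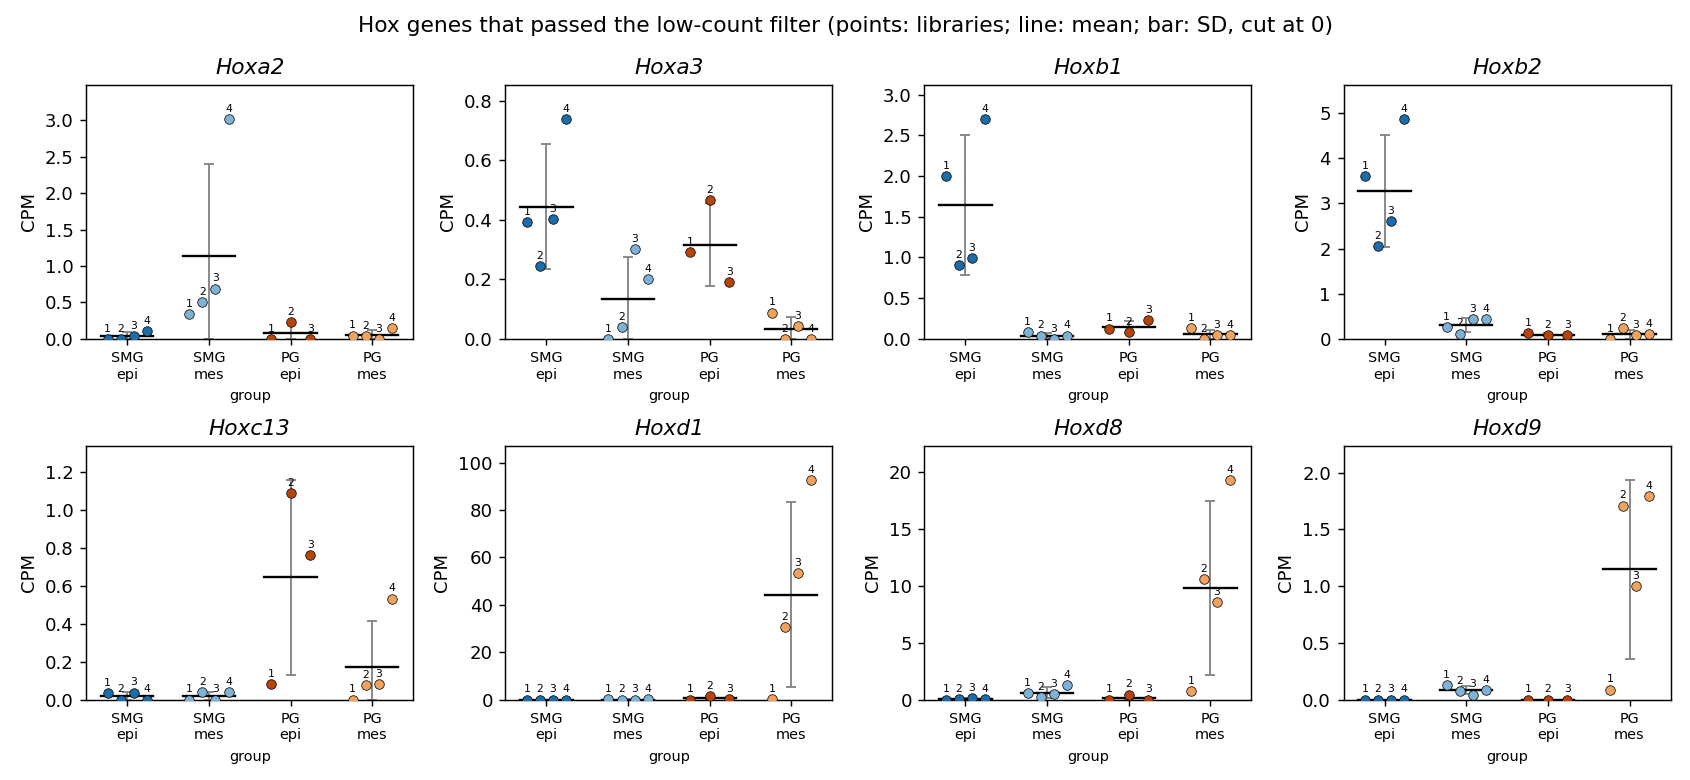
Level in CPM (linear axes from 0, scaled by gene) of the 8 Hox genes that passed the low-count filter, by group, with each library as a numbered point, the group mean as a line and its SD as a bar. Hoxb1 and Hoxb2 are high in all 4 SMG epithelium libraries, Hoxd1, Hoxd8 and Hoxd9 are high in PG mesenchyme replicates 2 to 4 with replicate 1 near the level of the other groups, and the Hoxa2 mean of SMG mesenchyme is raised by replicate 4.

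Of the HoxA genes, Hoxa2 was higher in the mesenchyme of the SMG bud and Hoxa3 in the epithelium of the PG bud. Hoxa2 (6:52162417-52164831), the selector gene of second-arch identity, had 0.335, 0.499, 0.689 and 3.02 CPM in SMG mesenchyme (8, 13, 16 and 75 reads). In SMG epithelium it had 0, 0, 0.0366 and 0.111 CPM, in PG epithelium 0, 0.233 and 0 CPM, and in PG mesenchyme 0.0438, 0.0388, 0 and 0.145 CPM. All SMG mesenchyme libraries lay above all other libraries, but replicate 4 held 75 of the 112 reads of its group. The fitted log2 difference was -4.80 ± 1.08 for SMG epithelium against SMG mesenchyme (adjusted p = 0.001531) and -4.27 ± 1.06 for PG mesenchyme against SMG mesenchyme (adjusted p = 0.007479). The pooled ratio was 31.8 (12.1 to 119) between the SMG layers and 21.3 (8.87 to 66.9) between the mesenchymes, higher in SMG mesenchyme each time. With SMG mesenchyme replicate 2, 3 or 4 left out, Hoxa2 no longer passed the low-count filter and was not tested. Hoxaas2, a non-coding gene that starts beside Hoxa2 at 6:52165674-52169564, had 3, 0, 3 and 47 reads in the same 4 libraries and was not tested.

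Hoxa3 (6:52169062-52213336), needed for the thymus and parathyroid, had the higher mean in epithelium in both glands, and its interaction of 1.42 did not pass (adjusted p = 0.5133). Its level was 0.392, 0.243, 0.403 and 0.738 CPM in SMG epithelium and 0, 0.0384, 0.301 and 0.201 CPM in SMG mesenchyme. It was 0.291, 0.466 and 0.191 CPM in PG epithelium and 0.0877, 0, 0.0416 and 0 CPM in PG mesenchyme. The groups overlapped in the SMG bud, where the log2 difference of 1.69 ± 0.72 did not pass (adjusted p = 0.06119), and did not overlap in the PG bud. There Hoxa3 was the 1 Hox gene of 8 that was higher in epithelium, by 3.11 ± 0.97 (adjusted p = 0.01591). In that comparison 46.0% of all genes differed, 21.9% higher and 24.2% lower. The call rested on 24 reads against 3 and was lost without PG epithelium replicate 2 (2.71, adjusted p = 0.06021). Hoxaas3, whose exons lie opposite 4.9% of the Hoxa3 exon bases, had 19, 9 and 14 reads in PG epithelium and 3, 1, 1 and 0 in PG mesenchyme, a log2 difference of 3.26 ± 0.94 (adjusted p = 0.00985). Hoxa3 exons also share bases with Hoxaas2 (8.4%) and Gm29430 (7.3%) on the opposite strand and with Gm28308 (8.0%) on the same strand. Gm28308 also holds 15% of the Hoxa2 exon bases, so the counts of both genes depend on how shared bases were treated. The remaining 8 HoxA genes had at most 29 reads over all libraries, with Hoxa5, the most abundant, at no more than 0.305 CPM.

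HoxC was represented by Hoxc13 in PG epithelium and by low counts of Hoxc5. Hoxc13 (15:102921103-102928814), known for hair and nail keratin expression, had 0.0832, 1.09 and 0.763 CPM in PG epithelium (2, 28 and 20 reads). It had at most 0.0366 CPM in SMG epithelium, at most 0.0403 CPM in SMG mesenchyme, and 0, 0.0777, 0.0832 and 0.532 CPM in PG mesenchyme. Hoxc13 was the 1 Hox gene of 8 higher in PG than in SMG epithelium, with a pooled ratio of 36.6 (9.61 to 310) over 2 reads in SMG epithelium (adjusted p = 0.01119). PG epithelium replicate 1 lay only just above the highest SMG epithelium library. Against PG mesenchyme the difference of Hoxc13 did not pass (1.93 ± 0.89, adjusted p = 0.08822) and the groups overlapped. Without PG epithelium replicate 1 it passed, at 2.44 (adjusted p = 0.03268). Hoxc5 (15:102967443-103017429), with 68 reads in all, did not pass the filter. It had 2, 17, 6 and 13 reads in PG mesenchyme, 3, 6 and 10 in PG epithelium, 0, 1, 6 and 4 in SMG epithelium and 0 in all SMG mesenchyme libraries. Its pooled level in PG mesenchyme was at least 13.3-fold higher than in SMG mesenchyme, taking 3 counts over the group as the floor. The other 7 HoxC genes had at most 26 reads each.

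HoxD genes held the highest Hox levels of the series, in PG mesenchyme replicates 2 to 4. Hoxd1 (2:74762980-74765142), the HoxD gene of lowest paralog number, had 30.6, 53.5 and 92.8 CPM there (787, 1285 and 1919 reads). PG mesenchyme replicate 1 had 0.175 CPM (4 reads), and replicates 2 to 4 together had 336 times its level. Hoxd1 had 0 reads in all 4 SMG epithelium libraries, 1, 0, 0 and 1 reads in SMG mesenchyme, and 0, 1.44 and 0.0763 CPM in PG epithelium. PG mesenchyme lay above SMG mesenchyme in each library, but replicate 1 lay below PG epithelium replicate 2. Hoxd8 (2:74704615-74707933) had 0.745, 10.6, 8.57 and 19.3 CPM in PG mesenchyme replicates 1 to 4. It had 0.544, 0.192, 0.474 and 1.25 CPM in SMG mesenchyme, 0, 0.427 and 0 CPM in PG epithelium, and 0 to 0.146 CPM in SMG epithelium. Replicate 1 of PG mesenchyme lay within the range of SMG mesenchyme, and replicates 2 to 4 lay above all other libraries. Hoxd9 (2:74697727-74700208) had 0.0877, 1.71, 0.999 and 1.79 CPM in PG mesenchyme and 0.126, 0.0768, 0.0431 and 0.0806 CPM in SMG mesenchyme, with 0 reads in all 7 epithelial libraries. Per kilobase of exon, the means over the 4 PG mesenchyme libraries were 23.8 CPM for Hoxd1, 3.57 for Hoxd8 and 0.537 for Hoxd9.

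Between the mesenchymes, 3 of the 8 Hox genes tested were higher in PG (Hoxd1, Hoxd8 and Hoxd9) and 1 was lower (Hoxa2), where 24.7% of all genes differed, 15.3% higher and 9.43% lower. For Hoxd1 the pooled ratio was 2099 (581 to 17334) over 2 reads in SMG mesenchyme, with an adjusted p of 0.004839. Hoxd8 had a fitted log2 difference of 3.99 ± 0.91 (adjusted p = 0.004993) and Hoxd9 one of 3.73 ± 0.83 (adjusted p = 0.007639). Of the 15 fits with 1 library left out, Hoxd9 was tested in 12, here and between the PG layers, and kept its call in those. In the rest it did not pass the low-count filter. Without PG mesenchyme replicate 1 the fitted values were 11.18 for Hoxd1 (adjusted p = 0.0001643), 4.37 for Hoxd8 (adjusted p = 0.0004263) and 4.12 for Hoxd9 (adjusted p = 0.0003073). Between the PG layers the same 3 genes were the Hox genes lower in epithelium. The log2 difference was -6.43 ± 1.69 for Hoxd1 (adjusted p = 0.0115) and -6.04 ± 1.21 for Hoxd8 (adjusted p = 0.000901). Hoxd9 was at least 29.1-fold lower in PG epithelium, over a floor of 3 counts (adjusted p = 0.001159). PG epithelium replicate 2, with the mesenchymal, neuron and other marker levels given above, held 37 of the 39 Hoxd1 reads and all 11 Hoxd8 reads of its group. Without it the fitted differences were -9.96 for Hoxd1 (adjusted p = 0.01358) and -10.96 for Hoxd8 (adjusted p = 0.0008591), values that rest on 2 and 0 reads left in PG epithelium and so depend on the fit's prior count. What the marker levels of that library contributed was not tested. Without PG mesenchyme replicate 1 the PG-layer differences were -6.84 for Hoxd1 (adjusted p = 0.0003159), -6.43 for Hoxd8 (adjusted p = 5.714e-05) and -8.26 for Hoxd9 (adjusted p = 3.404e-05, a value against 0 reads that depends on the prior count). In the SMG bud Hoxd8 was the second Hox gene lower in epithelium, by 3.39 on the log2 scale (SE 1.27, adjusted p = 0.03769). That call was lost without SMG epithelium replicate 1 (adjusted p = 0.08891), 2 (0.08449) or 4 (0.07979) and without SMG mesenchyme replicate 1 (0.05503), 3 (0.05087) or 4 (0.1177). Hoxd9, with 0 reads in SMG epithelium and 8 in SMG mesenchyme, was not called lower in SMG epithelium with all libraries but was called without PG mesenchyme replicate 1 (adjusted p = 0.00596).

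The levels did not follow a gradient along the cluster. From the Hoxd13 end, Hoxd13, Hoxd12, Hoxd11 and Hoxd10 had at most 1 read in any PG mesenchyme library. Hoxd9 and Hoxd8, whose starts lie at -65.3 and -58.4 kb relative to that of Hoxd1, were followed by Hoxd4 and Hoxd3 at no more than 0.416 CPM and then by Hoxd1 at up to 92.8 CPM. Hoxd3 and Hoxd4 share exon bases with each other and with the read-through gene Gm28230 (53.1% of Hoxd3 and 39.1% of Hoxd4), so their counts depend on how the authors' counting treated shared bases; Hoxd1, Hoxd8 and Hoxd9 share none. Haglr, the non-coding gene that starts 0.1 kb from Hoxd1 on the other strand, had 0, 6.60, 5.83 and 12.3 CPM in PG mesenchyme replicates 1 to 4 and at most 0.505 CPM elsewhere. Its pooled level was 66.0 times that of SMG mesenchyme (34.5 to 145, adjusted p = 0.01344). Hoxd3os1, antisense within the cluster, had 2, 39, 28 and 54 reads in PG mesenchyme and at most 2 in any other library (adjusted p = 0.000849 between the mesenchymes). Without replicate 1 the log2 difference between the mesenchymes was 6.42 for Haglr (adjusted p = 0.0004887) and 6.12 for Hoxd3os1 (adjusted p = 6.334e-05). Of the flanking genes outside the cluster, Lnpk and Mtx2 were lowest in replicate 1 but near their levels in replicates 2 to 4. Lnpk had 61.8 CPM there against 68.9 to 72.6 CPM, and Mtx2 130 CPM against 155 to 176 CPM. Evx2 had 0, 4, 1 and 12 reads in replicates 1 to 4.

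**Figure D4:**
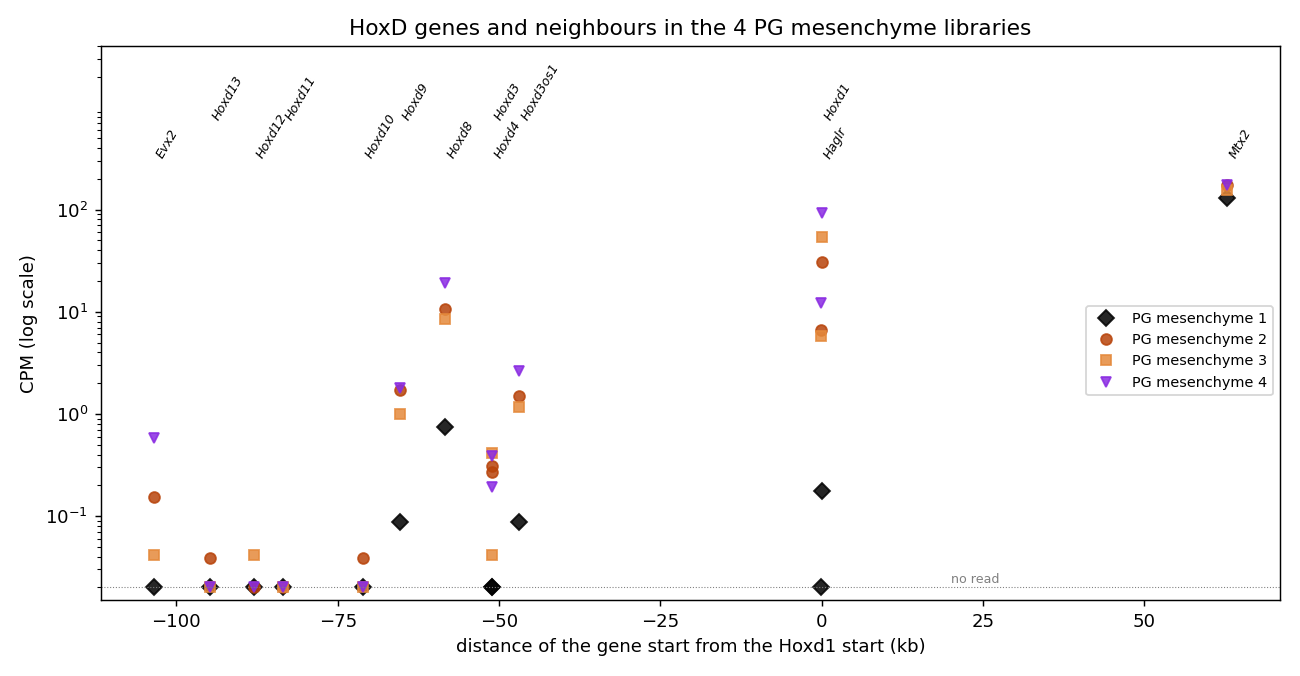
Level in CPM (log axis, with genes without a read drawn on the dotted line) of the HoxD genes, 2 non-coding genes and the flanking genes Evx2 and Mtx2 against the distance of each start from the Hoxd1 start in kb, for the 4 PG mesenchyme libraries. Replicate 1 (black) lies at 0.175 CPM for Hoxd1 where the others lie at 30.6 to 92.8 CPM, while Mtx2 is at 130 to 176 CPM in all 4.

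Other cell type markers moved among the PG mesenchyme libraries beside Hoxd1. Mesenchymal markers summed to 12745, 9824, 13281 and 11607 CPM in replicates 1 to 4, so replicate 1 was within the range of the others. Skeletal muscle markers summed to 1526, 1244, 960 and 734 CPM, the reverse of the order of Hoxd1, and to 33.5 to 169 CPM in SMG mesenchyme. Erythroid markers summed to 1674, 3035, 4950 and 7781 CPM, in the order of Hoxd1. SMG mesenchyme had 3622 to 5761 CPM of erythroid markers with at most 0.0419 CPM of Hoxd1. Between the mesenchymes all 8 skeletal muscle markers and 9 of 10 epithelial markers were called higher in PG, the latter with sums of 88.9 to 495 CPM against 9.71 to 19.9 CPM in SMG mesenchyme. The part of the muscle, erythroid, epithelial and neuron levels in the HoxD differences was not tested.

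Whether the layer difference itself depended on the gland was tested as an interaction, the PG difference minus the SMG difference. It passed for 1 of the 8 Hox genes, where 14.3% of all genes passed, 5.97% positive and 8.32% negative. Hoxb2 had an interaction of -3.58 ± 0.97 (adjusted p = 0.02109), the log2 difference being 3.39 in SMG and -0.19 in PG. The call was lost without PG epithelium replicate 3 (-3.44, adjusted p = 0.05011) or PG mesenchyme replicate 2 (-2.79, adjusted p = 0.1244). Hoxb1 had a value of -3.83 ± 1.24 that did not pass (adjusted p = 0.05121), nor did Hoxa2 with 5.29 ± 1.94 (adjusted p = 0.08556). Hoxb1 lay close to the threshold. It passed without SMG epithelium replicate 2 (adjusted p = 0.04589) or 3 (0.04788), SMG mesenchyme replicate 1 (0.04897), PG epithelium replicate 3 (0.0484) or PG mesenchyme replicate 2 (0.02598). For Hoxd1 and Hoxd9 the interaction could not be estimated with any precision, since 1 or more groups had 0 reads.

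**Figure D5:**
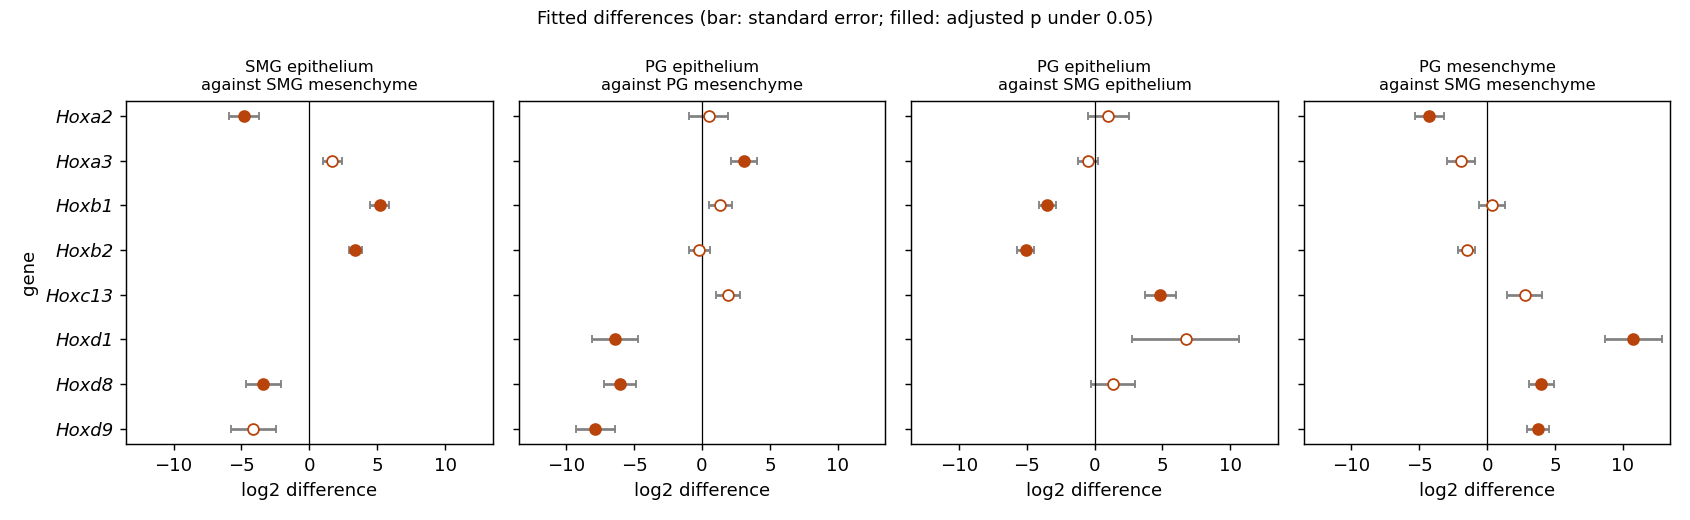
Fitted log2 difference with its standard error for the 8 tested Hox genes in the 4 pairwise comparisons, filled where the adjusted p was below 0.05; genes with 3 or fewer reads in both groups are left out, and values against a group with 3 or fewer reads depend on the prior count. Hoxb1 and Hoxb2 lie at 5.17 and 3.39 between the SMG layers and at -3.47 and -5.08 between the epithelia, and the HoxD genes lie below 0 between the PG layers and above 0 between the mesenchymes.

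Of the cofactors with which HOX proteins bind DNA, 8 were examined and all 8 were tested. Their counts and those of the other lists stand beside a share of all genes called of 51.9% between the SMG layers, 46.0% between the PG layers, 11.7% between the epithelia, 24.7% between the mesenchymes and 14.3% for the interaction. Between the SMG layers 3 were higher in epithelium and 2 lower, led by Meis1 (log2 difference 3.47 ± 0.44, adjusted p = 2.113e-05), Meis3 (1.53), Meis2 (1.27) and Pbx4 (-0.73). Between the PG layers 2 were higher and 1 lower, with Meis1 at 3.91, Meis2 at 3.02 and Pknox2 at -2.49. Meis1 had 400 to 430 CPM in SMG epithelium, 368 to 521 CPM in PG epithelium, 14.9 to 68.6 CPM in SMG mesenchyme and 17.3 to 54.2 CPM in PG mesenchyme. Between the epithelia 1 of the 8 was lower in PG (Pknox2, by 0.82 on the log2 scale) and 0 were higher, with 2 of the 8 at an unadjusted p below 0.05. The Pknox2 call was lost without PG epithelium replicate 2 (adjusted p = 0.08533), and Meis2 was called higher without PG mesenchyme replicate 1 (0.48, adjusted p = 0.005252). Between the mesenchymes 2 were higher in PG and 2 lower: Meis3 (1.39) and Pknox2 (1.20) were higher, and Meis2 (-1.27) and Pbx3 (-0.29) were lower. The Pbx3 call was lost without PG mesenchyme replicate 1 (adjusted p = 0.1313) or PG epithelium replicate 2 (adjusted p = 0.05229). The interaction passed for 3 cofactors, with Meis2 at 1.75 and with Pknox2 at -2.02 and Meis3 at -1.45.

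Of 19 upstream regulators and genes of retinoic acid handling, 14 passed the filter. The caudal factors Cdx1, Cdx2 and Cdx4, which drive Hox genes in the trunk, stayed at or below 0.192 CPM in all libraries. Between the mesenchymes 3 of the 14 were higher in PG and 4 lower. Otx1, a forebrain and head ectoderm factor, had 40, 15, 23 and 24 reads in PG mesenchyme and 1 read in all of SMG mesenchyme, a pooled ratio of 107 (18.8 to 4273). In PG epithelium Otx1 had 11.4 to 60 CPM against 0.582 to 1.75 CPM in PG mesenchyme, where epithelial markers were also higher than in SMG mesenchyme, and their part in the Otx1 difference was not tested. Rxrg, a retinoid X receptor, was higher by 3.20 on the log2 scale, with 17.5 to 28.8 CPM in PG mesenchyme and at most 0.893 CPM in PG epithelium. Cyp26a1, which degrades retinoic acid, fell by 3.69 and Rarb, a receptor that is itself induced by retinoic acid, by 2.87 on the log2 scale (adjusted p = 2.912e-08). Rarb had 353, 327, 308 and 346 CPM in SMG mesenchyme and 61.0, 37.4, 44.2 and 39.5 CPM in PG mesenchyme. Between the SMG layers 4 were higher in epithelium and 5 lower, among them Aldh1a2, which makes retinoic acid, at -8.76 ± 0.90 (adjusted p = 3.772e-06). Aldh1a2 had 435 to 814 CPM in SMG mesenchyme and 299, 116, 106 and 125 CPM in PG mesenchyme replicates 1 to 4, so the library low in HoxD was the highest of its group in Aldh1a2. Its Cyp26b1 level was 8.81 CPM against 21.6 to 26.0 CPM in replicates 2 to 4. Between the PG layers 4 were higher and 4 lower, and between the epithelia 2 were higher in PG and 2 lower, with Otx1 at 5.79 and Cyp26b1 at -3.15. The interaction was positive for 3 and negative for 2. Of the 33 calls of this list over the comparisons, 30 were kept without PG epithelium replicate 2 and 33 without PG mesenchyme replicate 1.

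Polycomb complexes silence Hox clusters, and Trithorax complexes and H3K27 demethylases act against that silencing. All 14 Polycomb genes examined were tested, and 5 were higher and 3 lower in SMG epithelium than in SMG mesenchyme, with Cbx7 (1.15), Phc2 (0.82) and Cbx2 (0.79) the largest, a share called near the 51.9% of all genes. Between the PG layers 4 were higher and 1 lower, again with Cbx7 (1.92) the largest. Between the epithelia 0 of the 14 passed, with 3 at an unadjusted p below 0.05, and between the mesenchymes 1 was higher (Bmi1, 0.66) and 2 were lower (Ring1, -0.40, and Ezh2, -0.22). The interaction passed for Bmi1 (-0.55). The Bmi1 interaction was lost without PG epithelium replicate 2 (adjusted p = 0.09469) and the Ezh2 call without PG mesenchyme replicate 1 (adjusted p = 0.07261). Of 7 Trithorax and H3K27 demethylase genes, 2 were higher and 1 lower in epithelium in each gland, with Wdr5 at 0.68 in SMG and 0.53 in PG, 1 was lower in PG epithelium, and 0 passed between the mesenchymes or for the interaction (0 also had an unadjusted p below 0.05 in either).

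The genes that flank the clusters and the non-coding genes within them gave the setting of these levels. Of 12 flanking protein-coding genes in the table, 8 were tested. Between the SMG layers 3 were higher and 3 lower (51.9% of all genes called), between the PG layers 2 and 1 (46.0%), between the epithelia 2 and 1 (11.7%), between the mesenchymes 2 and 0 (24.7%), and for the interaction 1 and 2 (14.3%). Skap1, beyond the HoxB cluster, had a log2 difference of 2.87 between the SMG layers (adjusted p = 0.0018), at 0.464 to 1.33 CPM in epithelium. For Skap2, beyond the HoxA cluster, the log2 difference was -1.23 between the SMG layers, 1.49 between the PG layers and 2.36 between the epithelia. Evx1 and Evx2, the homeobox genes at the high-numbered ends of HoxA and HoxD, had at most 0.629 and 0.58 CPM. Of 17 non-coding cluster genes in the table, 4 were tested (Hoxb3os, Hoxaas3, Hoxd3os1 and Haglr). Hotair had 3 reads over all libraries and Hottip 0.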

How the data were processed

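RNA was measured in 15 libraries made with SMART-Seq v4 and Nextera XT, per the labels' protocols, a chemistry that does not mark strand. The authors deposited whole-number counts per gene for 48709 genes and 92 spike-in rows (at most 0.00537% of a library), and a table of CPM for 24652 genes. The submitters' processing notes name STAR 2.5.2a and the builds GRCm38.p3 and mm10; how reads were assigned to genes is not given in the sources used here. With each library's factor taken from the counts, all values of 24652 genes in the deposited CPM table came out as whole reads (100.00%, tolerance 0.001). These reads equalled the deposited counts (100.00%). The edgeR fit on them called 9826, 8721, 2221, 4678 and 2705 genes, the same numbers as the count table. Equal numbers follow from the equal reads and are no separate check.

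The counts were fitted with edgeR 4.0.16 in R 4.3.3: TMM, filterByExpr by group, robust quasi-likelihood, 4 groups and 15 libraries in 1 fit, two-sided tests, Benjamini-Hochberg adjustment over 18940 genes and a threshold of 0.05. The common biological coefficient of variation was 0.227. CPM in the text are counts over TMM-scaled totals. Ratios of pooled CPM have exact 95% intervals that cover counting error only, and the floor was 3 counts over a group. Libraries had 20561142 to 29552734 counts. The fit was tested on simulated data. Gene positions are those of GENCODE M21 on GRCm38, and promoters come from RefSeq, GRCm38.p6.

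Values by library are given for Hox genes past the threshold in any comparison or with a mean of at least 0.5 CPM in a group; of other lists, up to 4 genes of largest fitted change with a mean of at least 1 CPM in a group are named, and any flanking or non-coding gene. Caudal genes, Hoxc5, the HoxD genes without a call, Pbx3, and Aldh1a2, Cyp26b1 and Egr2 beside PG mesenchyme or SMG epithelium replicates were added after their values were seen. The members and lists were chosen with earlier results of these data known. Some listed genes are not reported here. The alternatives were RLE factors, no filter, only the groups compared, leaving out libraries, a replicate block, DESeq2 1.42.0, other detection levels and, chosen after seeing the data, the recovered reads.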

Additional observations from a re-analysis of the deposited data

Results flagged for a closer look

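Hoxa2 in SMG mesenchyme was far higher in replicate 4 than in the rest: 3.02 CPM against 0.335, 0.499 and 0.689 CPM. In that library Hoxaas2 was also highest, at 47 reads against 0 to 3. Hoxc13 in PG mesenchyme was far higher in replicate 4, at 0.532 CPM (11 reads), than in replicates 1 to 3, at 0 to 0.0832 CPM. At the nominal level of the flagging rule, about 1 in 20 groups holds a library that stands out this far by chance. That rate was not measured on these low counts. The layer difference of Hoxb2 differed between the glands by a test of the difference itself, with an interaction of -3.58 on the log2 scale (adjusted p = 0.02109, edgeR). That call was lost without PG mesenchyme replicate 2 (-2.79, adjusted p = 0.1244), without PG epithelium replicate 3 (adjusted p = 0.05011) and with a replicate block (adjusted p = 0.07167). Hoxb2 was higher in epithelium in SMG and at 0.0763 to 0.125 CPM in all 3 PG epithelium libraries.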

How the results depend on the processing

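The 16 calls of a Hox gene in a comparison had 329 values under the alternatives, of which 317 kept the call, 12 lost it and 0 reversed it; the lost ones concern Hoxd8 between the SMG layers, Hoxa3 between the PG layers and the Hoxb2 interaction. Genes that failed the filter in a refit were not tested there. The refit on the recovered reads is among these alternatives and repeats the main fit, because those reads equal the deposited counts. The values it gave for the 16 calls could therefore not differ. Leaving out each library in turn, the Hox genes higher and lower numbered 2 to 3 and 0 to 3 between the SMG layers, 0 to 2 and 2 to 3 between the PG layers, 0 to 1 and 2 to 2 between the epithelia, 2 to 4 and 0 to 2 between the mesenchymes, and 0 to 0 and 1 to 2 for the interaction. All genes called ranged over 9017 to 10086, 7520 to 8798, 1698 to 2488, 3721 to 4937 and 2185 to 2744. The Hox genes detected then numbered 0 to 1 for PG epithelium, 1 to 3 for PG mesenchyme, 2 to 2 for SMG epithelium and 0 to 0 for SMG mesenchyme. Over the other alternatives, all genes called ranged over 9339 to 10354, 7351 to 9106, 1923 to 2902, 4146 to 5187 and 1979 to 3382 in the same order. The numbers of genes tested differed between these settings, so the Hox counts that follow are not shares. With no filter, 4 were higher between the SMG layers (adding Hoxc5 and Hoxb5), and Hoxd8 lost its call there (adjusted p = 0.104). Hoxd9 was called lower there with no filter (adjusted p = 0.04482) and by DESeq2 (adjusted p = 0.02723). Fitting only the groups compared left fewer Hox genes to test (2 between the SMG layers, 4 between the PG layers, 3 between the epithelia and 1 between the mesenchymes): 0 were lower between the SMG layers, 0 higher between the PG layers, 0 higher between the epithelia, and 1 higher and 0 lower between the mesenchymes. DESeq2 called 2 higher between the epithelia (adding Hoxd1) and, for the interaction, 1 higher (Hoxa2) and 2 lower (Hoxb1 and Hoxb2). Without PG epithelium replicate 2 and PG mesenchyme replicate 1 together, 2 were lower for the interaction, adding Hoxd8. At 0.1 CPM in every library 3 Hox genes were detected in SMG mesenchyme, 2 in PG epithelium and 2 in PG mesenchyme; at 1 CPM, 1 in SMG epithelium and 0 in PG mesenchyme; by a group mean of 0.5 CPM, 2 in SMG mesenchyme, 2 in PG epithelium and 3 in PG mesenchyme.

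The replicate numbers were not taken to pair the samples, since not every same-numbered pair correlated above 0.1: same-numbered deviations correlated at 0.014 to 0.283 between the SMG layers (3 of 4 libraries best with their own number; differently numbered pairs -0.175 to 0.029) and at -0.124 to 0.072 between the PG layers (1 of 3). The numbers may still pair samples of the SMG bud, which the main fit did not take into account. A block by replicate within gland kept the Hox calls between the SMG layers. With the replicate block within gland, the interaction had 1 Hox gene higher (Hoxa2, adjusted p = 0.0491) and 0 lower (Hoxb2, adjusted p = 0.07167), 1979 genes in all, and between the PG layers Hoxa3 lost its call (adjusted p = 0.06378) and Hoxc13 gained one (3.47, adjusted p = 0.01327). Of the 30 genes that failed the filter, Hoxc5, Hoxb5 and Hoxd3 passed the threshold with no filter, Hoxd3 between the PG layers at -5.78 (adjusted p = 0.008466; DESeq2 0.01508) and Hoxc5 between the mesenchymes (adjusted p = 0.001668; DESeq2 0.0002565).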

Other observations

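PG mesenchyme replicate 1 was compared with replicates 2 to 4 over the 12652 genes with at least 2 CPM in each of the latter, a rule chosen after the values were seen and given as a description of these libraries. The lowest of replicates 2 to 4 was at least 10 times replicate 1 for 17 genes (0.134%) and at least 2 times for 134 (1.06%). Hoxd1 ranked second at 174 times, after Xist at 263 times, a gene transcribed from the inactive X of female cells. Xist had 0.175 CPM in replicate 1 against 46.1 to 165 CPM in replicates 2 to 4. It also had 0.0861 CPM in SMG mesenchyme replicate 3 against 104 to 155 CPM in the rest of that group. What embryo sex contributed was not tested. Emx2, a homeobox gene of forebrain and limb girdle, had 0.263 CPM in replicate 1 and 12 to 22.1 CPM in replicates 2 to 4. Pax1, a gene of pharyngeal pouches and sclerotome, had 2.76 CPM against 120 to 219 CPM, and at most 0.251 CPM in SMG mesenchyme. Sim1 had 0.263 CPM against 7.16 to 8.93 CPM and 0 reads in SMG mesenchyme. Irx1 had 0.438 CPM against 7.26 to 20.8 CPM. Hand2, a gene of the ventral arches, had 0.745 CPM against 5.45 to 10.3 CPM, while SMG mesenchyme had 18.3 to 31.9 CPM, so the genes low in replicate 1 included some with high and some with low levels in SMG mesenchyme. In the same list Haglr had rank 5 and Hoxd8 rank 15.

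Egr2, which activates Hoxb2 in the hindbrain and is also an immediate early gene, had 12.3, 0.312, 5.05 and 48.0 CPM in SMG epithelium replicates 1 to 4. This is the order of Hoxb1 and Hoxb2 in those libraries (replicate 4, then 1, 3 and 2). Egr2 was also 32, 31.4 and 102 CPM in PG epithelium, where Hoxb2 did not exceed 0.125 CPM. In SMG mesenchyme replicate 4, which had the highest Hoxa2 level, Egr2 had 15.3 CPM against 0.172 to 0.652 CPM in replicates 1 to 3. The order was noticed after the values were seen, and no relation was tested over 4 libraries.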
